A study of Oryza sativa with 4 samples.

Results

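The outermost 1 Mb of the rice chromosomes was examined for nucleosome occupancy and position in oschz1 and WT seedlings. A nucleosome was counted as lying near a chromosome end when its position was at most 1000000 bp from the first base of the chromosome, or within 1000000 bp of the largest listed position. The position was the mean of the summits listed in the 2 genotypes, a summit being the point of highest occupancy of a nucleosome. The starts of Chr11 and Chr12 were not taken. This left 22 ends, namely 10 starts and 12 finishes, with 99571 nucleosomes of the 1690300 listed (5.89%). Coordinates are those of the rice build MSU7, to which the authors had mapped. The other 1589137 nucleosomes of the same 12 chromosomes served for comparison.

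The oschz1 plants carry a knockout of OsChz1 made with CRISPR/Cas9, and the WT plants are Nipponbare without that mutation. Seedlings of both genotypes were 30 days old and came from growth chambers with long days (14 h light, 30 °C) and short nights (10 h, 28 °C). The series holds 2 MNase-seq libraries of oschz1 and 2 of WT. A single mutant allele was compared, and chromatin was taken from seedlings, so that many cell types contribute to 1 average map.

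MNase-seq reads the DNA that the histone core protects while micrococcal nuclease digests the linkers, and the density of fragments at a site is taken as nucleosome occupancy. Chz1 proteins are histone chaperones, first described in budding yeast, where they carry dimers containing a variant of one core histone. The rice protein also binds dimers with the canonical histone. Chromosome arms of plants finish in telomeric repeats bound by dedicated proteins. Next to the telomere lie subtelomeric stretches with duplicated and repetitive sequence, and then, in rice, the gene-rich distal arm. Reads from near-identical copies cannot be placed uniquely, so repeats are read less well than single-copy DNA.

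The deposited map holds 1 merged value per genotype. Occupancy is a signal without a physical unit, and the authors do not state how it was scaled between the genotypes. Its values fell on a pattern of steps. In oschz1, 99.7% of the values were whole multiples of 0.433 and of 0.660 added together, and in WT 99.7% were sums of whole multiples of 0.370 and 0.681 (within 1e-06). The pattern is what 2 libraries per genotype would leave after each had been scaled to a common total and the pair averaged. On that reading, which comes from the values and is not stated by the authors, the contribution of each of 4 libraries can be recovered. They are called here series a (the finer step) and series b of each genotype, since the labelled replicate behind each is not known. A nucleosome near an end held a median of 17 steps in series a and 12 in series b of oschz1, against 20 in series a and 12 in series b of WT. At the ends, 27.1% of the nucleosomes differed by at least 2-fold between the 2 oschz1 series, and 25.1% did so between the 2 WT series. Single nucleosomes therefore carry little weight at this depth. The comparisons of ends below rest on regions of 1 Mb with 3760 nucleosomes or more, and values of single nucleosomes, windows of 10 kb and the outermost bands are given as descriptions. Nucleosomes are not replicates, and no test was run across them.

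Nucleosomes lay as densely near the chromosome ends as elsewhere. On average 45.3 nucleosomes were listed per 10 kb at the ends, against 45.2 per 10 kb in the other rows. Single ends ranged from 37.6 to 51.1 per 10 kb. The finish of Chr6 had the fewest listed nucleosomes (3760), followed by the start of Chr9 (3910) and the finish of Chr11 (3917), and the finish of Chr7 had the most (5110). Among 345 interior blocks of 1 Mb, counts of 3826 and 4894 marked the 5th and 95th percentiles, so that 1 end lay below that range and 3 above it.

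The 4 longest unlisted stretches lay at the same places in both genotypes. At the finish of Chr6, neighbouring summits lay 44080 bp apart at the widest place in oschz1 and 44970 bp in WT. At the finish of Chr9 the widest distance was 35330 bp in oschz1 and 41300 bp in WT. The start of Chr2 had a stretch of 21950 bp without a summit in oschz1, against 21925 bp in WT. At the start of Chr9 the largest gap was 21015 bp in oschz1 and 21010 bp in WT, and the map there began at position 37796, whereas the other 9 starts began between positions 351 and 8341. The short arm of Chr9 is known to carry ribosomal RNA gene arrays. At these 4 ends the widest gap of oschz1 thus matched that of WT in place, and its length differed most at the finish of Chr9. On Chr5 the widest gaps differed in length between the genotypes, with 16230 bp in oschz1 and 9950 bp in WT at the finish, and 14440 bp in oschz1 and 8912 bp in WT at the start.

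Nucleosome spacing near the ends was that of the chromosomes as a whole. The median distance between neighbouring summits was 200 bp at the ends in oschz1 and 200 bp in WT, and it was also 200 bp in the other rows of either genotype. No pair of summits of 1 genotype was listed closer than 100 bp. The median was exactly 200 bp at 18 of 22 ends in oschz1 and at 20 of 22 in WT, and it reached 210 bp at 2 ends in oschz1 and 1 end in WT. At the ends 85.8% of oschz1 and 86.5% of WT summits lay on a grid of 10 bp, so medians move in coarse steps. The mean of distances up to 400 bp was 205.5 bp at the ends and 204.8 bp in the other rows in oschz1. In WT it was 204.7 bp and 204.5 bp. Over single ends this mean ranged from 201.6 to 208.5 bp in oschz1 and from 201.5 to 208.2 bp in WT. A distance of 150 to 200 bp, a core particle with a short linker, was found for 30.8% of pairs at the ends in oschz1, against 32.2% in WT. In the other rows the values were 31.1% in oschz1 and 32.0% in WT. The genotypes thus differed by a little more than 1 percentage point at the ends, as they did by about 1 point in the remaining rows. Distances of over 300 bp made up 22.7% of pairs in oschz1 and 22.4% in WT at the ends, against 22.2% in oschz1 and 22.4% in WT in the other rows. Distances of over 1000 bp made up 1.16% in oschz1 and 1.23% in WT at the ends, against 1.22% in oschz1 and 1.32% in WT in the other rows.

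**Figure D1:**
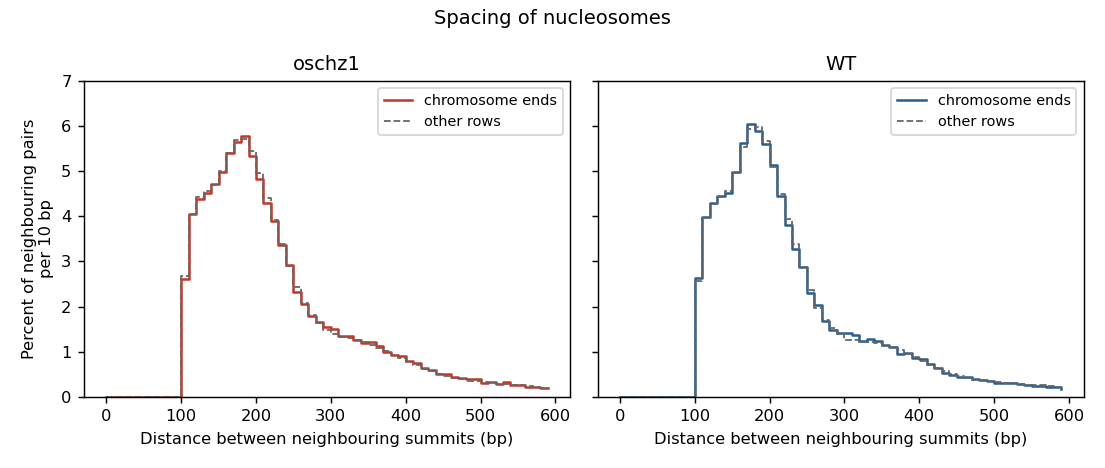
Distance between neighbouring summits of oschz1 (left) and WT (right) in bins of 10 bp, as a percentage of pairs, at the chromosome ends (solid) and in the other rows (dashed). The lines nearly coincide, and at the ends the fullest bin runs from 180 to 190 bp in oschz1 and from 170 to 180 bp in WT.

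The median occupancy near the ends was slightly lower than in the rest of the chromosomes in oschz1, and nearly the same in WT. The median signal at the ends was 15.04 in oschz1, with quartiles of 11.5 and 19.5, against 15.22 in WT, with quartiles of 11.6 and 19.8. In the other rows, the median was 15.25 in oschz1 and 15.20 in WT. With series a or series b of a genotype left out, the difference in median between ends and other rows was 0 in that genotype. A single series takes whole steps that are wider than these differences. In WT it was also 0 without values of 0. Over the 22 ends, the medians of oschz1 ranged from 14.8 to 15.7 (mean 15.04 ± 0.221, SD), and those of WT from 14.8 to 15.5 (mean 15.23 ± 0.187, SD). The oschz1 median was below the WT median at 17 of the 22 ends and above it at 5. It was below that of the other oschz1 rows at 16 ends, whereas the WT median was above that of the other WT rows at 13 ends. The differences were small beside the spread within an end, where the quartiles lay some 8 units of signal apart.

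**Figure D2:**
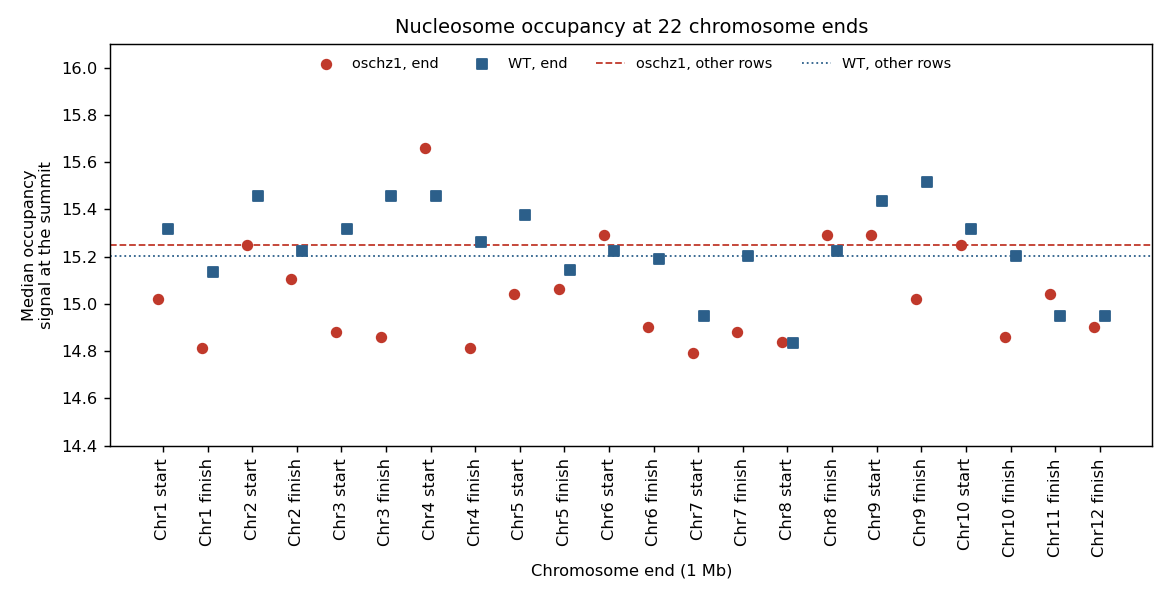
Median occupancy signal at each of the 22 chromosome ends, for oschz1 (circles) and WT (squares), with the medians of the other rows as lines. The oschz1 values spread from 14.8 to 15.7 and lie below the WT values at 17 ends; the axis does not start at 0.

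The ratio of the genotypes was computed for each nucleosome as log2 of oschz1 over WT, after 1 had been added to both values. The median log2 ratio was -0.018 at the ends and 0.0019 in the other rows, a difference of -0.020. On a linear scale a log2 ratio of -0.018 is a difference of -1.22%. The median was below 0 at 19 of 22 ends and above 0 at 3. The 3 lowest ends were the finish of Chr3 (-0.053), the finish of Chr4 (-0.047) and the start of Chr3 (-0.045). The 3 highest were the start of Chr10 (0.024), the start of Chr4 (0.016) and the finish of Chr11 (0.0067). Within each chromosome the ends had a lower median log2 ratio than the remaining rows, in 12 of 12 chromosomes. That difference was largest on Chr3 (-0.041) and smallest on Chr8 (-0.011), with a mean of -0.019 ± 0.0086 (SD, n = 12). Leaving out WT series b, one of the component series described above, turned the median at the ends to 0.056, while the difference from the other rows was then -0.020.

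The starts of Chr4 and Chr10 lie on the short arms of these chromosomes, which are known to be rich in heterochromatin. Together they held 9268 nucleosomes with a median log2 ratio of 0.021. The start of Chr4 had the highest oschz1 median of all ends, 15.7, against 15.5 in WT. The start of Chr10 had a median of 15.2 in oschz1, against 15.3 in WT.

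Interior blocks of the same length showed how far 1 Mb regions vary. The median log2 ratio of the 345 blocks had a median of 0.0057 and lay between -0.032 and 0.034 for the 5th to 95th percentiles. Of the 22 ends, 5 were below this range and 0 above it, and 19 were below the median of the blocks. The lowest interior block had -0.049, close to the lowest end. The ends thus sat in the lower part of the range of interior blocks, and values like those of single ends also occurred in the interior.

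**Figure D3:**
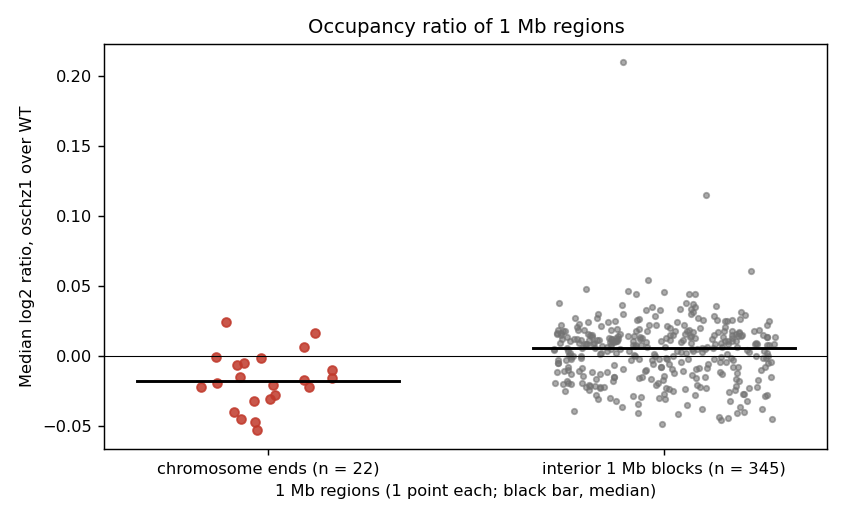
Median log2 ratio of oschz1 over WT in the 22 chromosome ends (left) and in the 345 interior blocks of 1 Mb (right), 1 point per region, with black bars at the medians. The ends lie between -0.053 and 0.024, and the blocks are centred on 0.0057, with 5th and 95th percentiles of -0.032 and 0.034, so that 5 ends lie below that range.

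The 4 recovered series allowed the level at the ends to be set against the spread between libraries. In each series the mean occupancy of the ends was divided by that of the other rows of the same series. The log2 of this ratio was -0.011 in series a and -0.018 in series b of oschz1, against 0.0076 in series a and 0.0072 in series b of WT. Both oschz1 series were below both WT series, and the groups did not overlap. The mean was -0.014 ± 0.0053 in oschz1 and 0.0074 ± 0.00025 in WT (SD, n = 2 each), a difference of -0.022, or -1.497% on a linear scale. An exact two-sided permutation test gave p = 0.333, which is the smallest value that 2 series against 2 can reach, so the design cannot pass a threshold of 0.05.

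The same comparison was made for each end. Both oschz1 series were below both WT series at 14 of 22 ends (63.6%), and both were above at 1 end (4.55%), the start of Chr4. At the other 7 ends the series overlapped. Over ends and interior blocks pooled, the oschz1 series were both below in 33.8% of the 1 Mb regions and both above in 28.3%. In the interior blocks alone, the shares were 31.9% below and 29.9% above. At the finish of Chr3, the oschz1 series had log2 ratios of -0.019 and -0.035, against 0.026 and 0.024 in WT. At the finish of Chr4 they had -0.052 and -0.032, against 0.019 and 0.0068 in WT. The start of Chr3 showed -0.030 and -0.031 in oschz1, against 0.026 and 0.010 in WT. These 3 ends were picked for their ratio, so that the separation of their series is a description. The start of Chr10 had -0.0065 and 0.0079 in oschz1, against -0.012 and -0.0055 in WT, and the finish of Chr11 had -0.013 and -0.014 in oschz1, against -0.041 and -0.0052 in WT, so that at both of these ends the series overlapped.

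The lower ratio was not particular to the last Mb. In the next Mb inward from the same 22 ends, 100027 nucleosomes had a median log2 ratio of -0.017. There the log2 ratios of the series to the other rows were -0.011 and -0.013 in oschz1, against 0.011 and 0.0071 in WT. From 2 to 5 Mb the median log2 ratio was -0.0089, and beyond 5 Mb it was 0.0071. At 2 to 5 Mb the series stood at -0.0040 and -0.0081 in oschz1, against 0.0082 and 0.0053 in WT, and beyond 5 Mb at 0.0027 and 0.0040 in oschz1, against -0.0030 and -0.0018 in WT. The other rows are themselves the base of these ratios, so the values beyond the ends average to about 0. Both oschz1 series were below both WT series in each band from 100 kb to 5 Mb and above them beyond 5 Mb, whereas the series overlapped in the outermost 100 kb. Just inside the limit, from 900 to 1000 kb, the median log2 ratio was -0.041, and just outside it, from 1000 to 1100 kb, it was -0.0096. Starts and finishes were alike in sign, with median log2 ratios of -0.011 at the 10 starts and -0.022 at the 12 finishes.

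**Figure D4:**
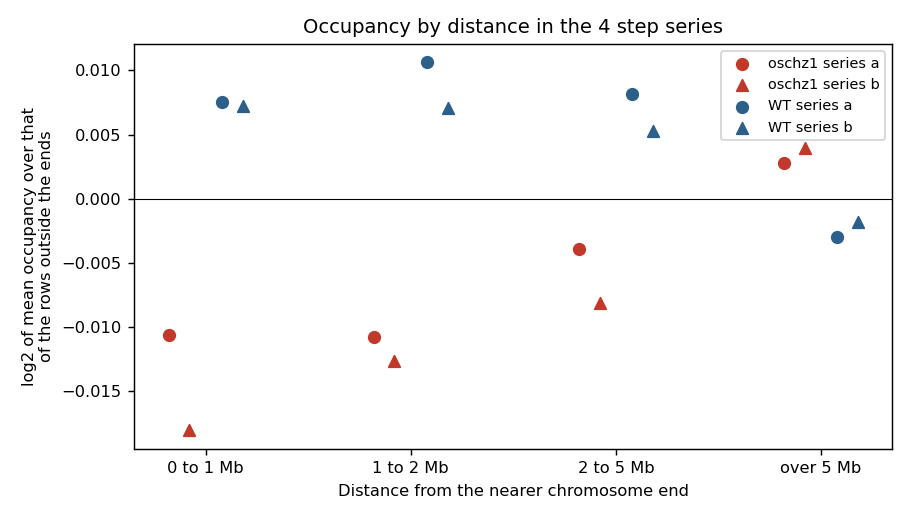
Mean occupancy of each of the 4 recovered series by distance from the nearer chromosome end, as log2 over the mean of the same series in all rows outside the ends. Both oschz1 series (red) are below both WT series (blue) in the 3 bands up to 5 Mb and above them beyond 5 Mb; the first band is the whole last Mb, and its outermost 100 kb, where the series overlap, is not drawn apart.

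Within the last Mb, the outermost 50 kb stood apart when the ends were pooled. It held 37.9 nucleosomes per 10 kb, against 44.8 to 46.1 per 10 kb in the 4 bands between 50 and 1000 kb. Single ends ranged from 0.800 per 10 kb at the finish of Chr9, with 4 nucleosomes, to 55.6 per 10 kb at the start of Chr8, with 278. The listed nucleosomes of this band had the highest median signal of any band, 15.7 in oschz1 and 15.6 in WT. All 4 series were above their other rows here, with log2 values of 0.032 and 0.034 in oschz1, against 0.030 and 0.057 in WT. The median log2 ratio of the genotypes was -0.0051, and it was below 0 at 10 of 22 ends. The values of single ends spread from -0.12 at the finish of Chr3 to 0.39 at the finish of Chr9, where it rested on 4 nucleosomes. From 50 to 100 kb the median log2 ratio was -0.00084. It was -0.017 from 100 to 250 kb, -0.018 from 250 to 500 kb and -0.021 from 500 to 1000 kb. The number of ends with a median below 0 was 12, 14, 17 and 17 in these 4 bands, while the SD over the ends was 0.063, 0.044, 0.025 and 0.021. The outer bands hold fewer nucleosomes per end, and their spread over the ends was wider.

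**Figure D5:**
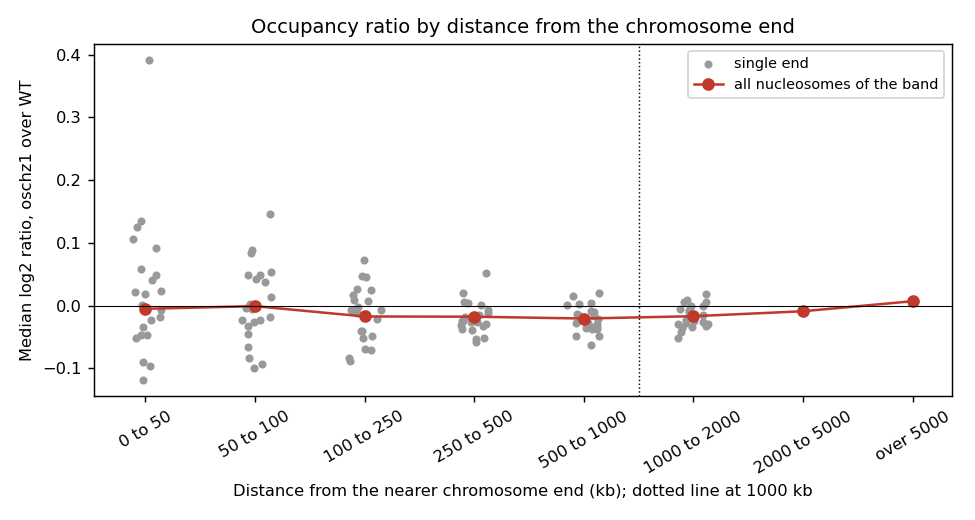
Median log2 ratio of oschz1 over WT by distance from the nearer chromosome end, for all nucleosomes of a band (red line) and for single ends (grey points, up to 2000 kb). The band values go from -0.0051 in the outermost 50 kb to -0.021 at 500 to 1000 kb and 0.0071 beyond 5000 kb, and the single ends narrow from an SD of 0.11 to 0.021 over the last Mb.

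Changes of at least 2-fold at single nucleosomes were about as frequent near the ends as in the whole map. At the ends, 7698 nucleosomes were at least 2-fold higher in oschz1, which is 7.73% (95% Wilson interval 7.57 to 7.90%), against 8.02% of all nuclear nucleosomes. At least 2-fold lower were 8226, or 8.26% (8.09 to 8.43%), against 7.79% of all nuclear nucleosomes. The intervals cover counting error only. The lower nucleosomes outnumbered the higher ones at 17 of 22 ends. Without WT series a the order of the pooled shares turned, with 13.9% higher and 11.9% lower, and likewise without WT series b, with 10.5% higher and 7.55% lower. The share of lower nucleosomes was largest at the start of Chr3 (9.66%) and smallest at the start of Chr4 (6.83%). The share of higher nucleosomes was largest at the start of Chr7 (8.61%) and smallest at the finish of Chr2 (6.97%). Each of these shares counts a single direction in merged values, and a single series holds fewer steps than a merged value. The shares are thus not comparable with the 27.1% and 25.1% that differed as much, in either direction, between 2 series of the same genotype. An oschz1 series and a WT series differed at least 2-fold at 21.6% of end nucleosomes (a against a) and 29.5% (oschz1 a, WT b). The values were 27.7% for oschz1 b against WT a and 32.8% for b against b. Both values within a genotype lay inside this range. Among end nucleosomes with both summits, 23.5% differed at least 2-fold between the oschz1 series and 21.5% between the WT series. Between genotypes the values were then 14.2% (a against a), 19.5% (oschz1 a, WT b), 17.7% (oschz1 b, WT a) and 20.7% (b against b). At these nucleosomes each value within a genotype was thus above each value between genotypes.

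Most of the 2-fold differences were at nucleosomes that lacked a summit in one genotype. Of the 2-fold differences at the ends, 10.7% were at nucleosomes with a summit in both, against 10.3% in the other rows. Among the nucleosomes with both summits, 2.58% differed by at least 2-fold at the ends and 2.45% in the other rows. The share also followed the level. In the lowest quintile of mean occupancy, 21.2% of end nucleosomes were at least 2-fold higher in oschz1 and 20.9% lower, while in the highest quintile 1.79% were higher and 2.52% lower. In the other rows the lowest quintile had 22.1% higher and 20.2% lower, and the highest quintile 1.91% higher and 2.20% lower. In each of the 5 quintiles the ends had a smaller share of higher and a larger share of lower nucleosomes than the other rows.

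The largest differences at single nucleosomes were between a listed signal and 0. A value of 0 was listed in oschz1 at 17 end nucleosomes and in WT at 10. In the other rows it was listed at 369 nucleosomes in oschz1 and at 2148 in WT, of which 261 lay outside Chr10 and Chr11. The 5 largest falls on the log2 scale were all listed at 0 in oschz1. Their WT signal was 19.8 on the finish side of Chr4 (position 34572566), 18.9 on the start side of Chr8 (position 107101), 17.2 and 17.1 on the start side of Chr3 (positions 807201 and 619931) and 15.3 on the finish side of Chr5 (position 29670841). Of the 5 largest rises, 4 were listed at 0 in WT. Their oschz1 signal was 16.4 on the finish side of Chr7 (position 29496871), 11.9 on the start side of Chr8 (position 241081), and 11.8 both on the start side of Chr4 (position 642801) and on the finish side of Chr1 (position 42914933). The fifth, on the finish side of Chr6 at position 30933436, had 20.5 in oschz1 and 0.739 in WT. All 10 had a summit in 1 genotype alone. In all of them both series of the lower genotype were below both of the other, as a value of 0 or near 0 requires.

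Such differences were not drawn out along the chromosome. The longest run of consecutive end nucleosomes that were all at least 2-fold higher in oschz1 had 4 members, and the longest run of lower ones had 5. In the other rows, runs reached 239 higher nucleosomes and 24 lower ones. The longest runs are not comparable, as the other rows hold 1589137 nucleosomes and the ends 99571. Runs of 3 or more numbered 54 higher and 42 lower at the ends, against 933 higher and 675 lower in the other rows. Runs of 5 or more numbered 0 higher and 1 lower at the ends, against 68 higher and 10 lower in the other rows. At the 22 ends no run of such differences was thus longer than 5 nucleosomes. Runs were counted over listed nucleosomes, so they do not cover the unlisted stretches described above.

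The outermost listed nucleosome was read at each end. Its signal ranged from 5.05 to 27.1 in oschz1, with a median of 13.6, and from 5.49 to 27.6 in WT, with a median of 13.6. It was higher in oschz1 at 12 of 22 ends and lower at 10, with a median log2 ratio of 0.041. A summit was listed in both genotypes at 12 ends (54.5%, against 66.1% of all nuclear nucleosomes), in oschz1 alone at 5 (22.7%, against 17.4%) and in WT alone at 5 (22.7%, against 16.5%). At the start of Chr7, at position 1091, the signal was 18.5 in oschz1 and 5.49 in WT. The series there read 17.3 and 19.8 in oschz1, against 9.61 and 1.36 in WT. This was the only end whose outermost nucleosome was at least 2-fold higher in oschz1 (4.55% of the ends, against 8.02% of all nuclear nucleosomes). It was at least 2-fold lower at 3 ends (13.6%, against 7.79%). Nothing particular to the outermost nucleosomes is read from these counts. At the finish of Chr7 the outermost nucleosome, at position 29696821, had 5.05 in oschz1 and 14.1 in WT, with 0.865 and 9.23 in the oschz1 series, against 21.4 and 6.81 in the WT series. At the finish of Chr6, at position 31247656, it had 11.5 in oschz1 and 27.6 in WT, with series of 19.0 and 3.96 in oschz1, against 25.1 and 30.0 in WT. At the start of Chr1, at position 1121, it had 10.7 in oschz1 and 24.5 in WT, with series of 14.7 and 6.60 in oschz1, against 16.3 and 32.7 in WT. The series of the genotypes overlapped at the finish of Chr7 and did not at the finish of Chr6 or the start of Chr1. The start of Chr9 began at position 37796 with 12.2 in oschz1 and 6.73 in WT.

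Windows of 10 kb showed where occupancy differed regionally. Of the windows at the ends, 2059 held at least 20 listed nucleosomes. Their median log2 ratios ranged from -0.39 to 0.43, with the middle 95% between -0.24 and 0.23, against -0.23 and 0.24 for the other 32939 windows. It was below 0 in 55.3% of the end windows and in 49.4% of the others. Both oschz1 series were below both WT series in 23.3% of the end windows, against 18.6% of all nuclear windows, and above in 13.3% of the end windows, against 17.6% of all nuclear windows. The ends thus had more windows with the oschz1 series low and fewer with them high.

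Chr3 supplied 2 of the 5 lowest and 4 of the 5 highest windows. The lowest began 130 kb from the finish of Chr3 (36273486 to 36283161), where 45 nucleosomes had a median signal of 13.8 in oschz1 and 18.4 in WT, a median log2 ratio of -0.39. There the log2 levels of the series over all other rows were -0.058 and -0.082 in oschz1, against 0.19 and 0.33 in WT. A window 510 kb from the same finish had medians of 16.5 in oschz1 and 19.3 in WT (log2 ratio -0.38). The other low windows lay 550 kb from the finish of Chr4 (-0.38), 910 kb from the start of Chr6 (-0.38) and 10 kb from the finish of Chr10 (-0.37). The highest window began 830 kb from the start of Chr3 (830346 to 839896), with 25 nucleosomes and medians of 16.4 in oschz1 and 13.7 in WT, a median log2 ratio of 0.43. Windows on the same side of Chr3 at 970 kb (0.41), 920 kb (0.38) and 280 kb (0.37) were also among the 5 highest. At 920 kb the medians were 13.9 in oschz1 and 11.4 in WT, and 30 of 43 nucleosomes were higher in oschz1. The outermost window of Chr10 at its start, from position 1431 to 8486, had medians of 15.1 in oschz1 and 13.2 in WT (log2 ratio 0.40). The start of Chr3 thus had windows at the top of the range although its own median was among the 3 lowest, and its windows had the widest spread of all ends (SD 0.16). These windows were picked for their ratio, so that the separation of their series is a description. No gene is named for them, as no annotation of the build was used here.

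Fuzziness, a score of how widely the fragments of a nucleosome scatter around its summit, was alike at the ends in both genotypes. Its median was 54.01 in oschz1 and 54.00 in WT at the ends, against 54.08 in oschz1 and 54.08 in WT in the other rows. These medians include nucleosomes without a summit in that genotype. Among nucleosomes with both summits, the ends differed from the other rows by -0.186 in oschz1 and -0.153 in WT. The SD of the medians over the 22 ends was 0.188 in oschz1 and 0.218 in WT, with all nucleosomes taken. Single ends ranged from 53.6 to 54.4 in oschz1 and from 53.6 to 54.4 in WT. In WT the 3 highest were the finish of Chr7 (54.4), the start of Chr9 (54.3) and the start of Chr1 (54.3), and the 3 lowest the finish of Chr12 (53.6), the finish of Chr1 (53.7) and the finish of Chr11 (53.7). The same end was lowest in oschz1 and in WT, with 53.6 in both. The oschz1 median was above the WT median at 11 of 22 ends, and 50.5% of end nucleosomes were fuzzier in oschz1. For WT occupancy, the highest median was at the finish of Chr9 (15.5), followed by the start of Chr2, the finish of Chr3 and the start of Chr4, which shared 15.5 as well. The lowest was at the start of Chr8 (14.8), followed by the start of Chr7 and the finishes of Chr11 and Chr12 with 14.9.

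Both genotypes had a summit at 65.9% of the end nucleosomes, against 66.1% of the other rows. A summit was found in oschz1 alone at 17.1% of the end nucleosomes, against 17.4% of all nuclear nucleosomes, and in WT alone at 17.0% of the end nucleosomes, against 16.5% of all nuclear nucleosomes. The share with a summit in WT alone was higher at the ends than in the rest of the same chromosome in 10 of 12 chromosomes. There were more oschz1 summits without a WT partner than the reverse at 13 of 22 ends.

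Where both genotypes had a summit, the oschz1 summit was displaced from the WT summit by a median of 20 bp, at the ends as in the other rows. It was at the same position in 11.9% of the end nucleosomes with both summits, against 11.8% of the others. A displacement of at least 50 bp was found in 14502 of the 65628 end nucleosomes with both summits, or 22.1%, against 22.7% of all nuclear ones. This share was lower at the ends than in the rest of the same chromosome on all 12 chromosomes, with differences of -1.47 to -0.16 percentage points. Of the displaced nucleosomes, 7354 had moved toward the chromosome end in oschz1, which is 50.7% (95% Wilson interval 49.9 to 51.5%), against 49.8% of those in the other rows. The share ranged from 46.7% at the start of Chr4 to 53.1% at the finish of Chr12. At all 22 ends its interval, which covers counting error only, included 50%. Nucleosomes are not replicates, and a direction was not tested.

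Chr7 differed from the other chromosomes in how summits were listed. On Chr7, 98.7% of oschz1 summits and 98.8% of WT summits lay on a grid of 10 bp, against 84.5 to 85.004% in oschz1 and 85.2 to 85.7% in WT on the other chromosomes. The share of unmoved nucleosomes was 16.2% at its start and 15.01% at its finish, the 2 highest of all ends, and 14.9% in the rest of Chr7. The high share at both ends of Chr7 was thus found along the whole chromosome, and the part of the grid in it was not tested.

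Starts and finishes also differed in a further pair of columns, the point values. A point value is the occupancy where the maps of the genotypes differ most within a nucleosome. It was above 0 in at least 1 genotype at 91.6% of the nucleosomes of the 10 starts, but at 14.8% of those of the finishes other than Chr1. Single starts ranged from 86.1% at Chr4 to 96.2% at Chr3, and single finishes other than Chr1 from 13.7% at Chr7 to 15.2% at Chr2, so that the starts and these finishes did not overlap. Chr1 stood apart, with 94.8% at its start, 100% at its finish and 99.4% in its other rows. On Chr2 to Chr12 the share was 14.8% in rows more than 5 Mb from the start. The remaining nucleosomes were listed at 0 in both genotypes, although they had occupancy at their summits. The point values of the ends, filled at 53.6%, were thus not comparable with those of the other rows, filled at 30.1%, and they were not used for any ratio. Summit values, on which all results above rest, were not filled in this pattern, as a value of 0 was listed at no more than 17 end nucleosomes in either genotype.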

How the data were processed

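MNase-seq was analysed in 2 libraries of oschz1 and 2 of WT. According to their methods, the authors mapped read pairs to the rice genome (MSU7) with Bowtie2 2.3.4.1, removed reads with a mapping quality below 20 and likely PCR duplicates with SAMtools, and ran DANPOS. Occupancy was deposited as a signal merged within each genotype, and the scaling of these values is not described. Point values and fuzziness are scores deposited by the authors. The control columns were taken as WT and the treated columns as oschz1. Columns that hold the authors' own comparisons (distances between summits, −log10 p-values and FDR) were not used, and 0 value columns were left unmapped.

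Log2 ratios used a pseudocount of 1, a change meant at least 2-fold, and a displacement at least 50 bp. Wilson intervals (95%) cover counting error only. Step series were solved as whole multiples of 2 steps per genotype within 1e-06. This reading of the values was chosen after seeing the data. It is limited to the summit values, and each genotype is read at its own summit where it has one. Where no summit was listed for a genotype, a value was still listed for it and was used. The authors describe the libraries of a genotype as biological replicates. No other depth is given. Named regions are all 22 ends, the outermost nucleosome of each, the 3 highest and 3 lowest ends by ratio, WT occupancy and WT fuzziness, and the 5 highest and 5 lowest windows of 10 kb and single nucleosomes. Members, bands and lists were chosen with earlier results of these data known. The code was tested on simulated data. Python 3.11.15 with numpy 2.4.6, pandas 2.3.3, scipy 1.17.1 and matplotlib 3.10.9 was used.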

Additional observations from a re-analysis of the deposited data

How the results depend on the processing

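The difference in median log2 ratio between the ends and the other rows stayed below 0 under the alternatives tried. It was -0.016 with ends of 500 kb, -0.021 with ends of 2 Mb, -0.014 for nucleosomes with both summits and -0.019 without values of 0. Leaving out 1 series at a time (chosen after seeing the data) gave -0.031 to -0.016. The median log2 ratio at the ends alone was less stable. It ran from -0.087 to 0.056, and turned positive (0.056) without WT series b. The percentage of nucleosomes at least 2-fold higher ran from 7.63 to 13.9% and that of lower ones from 7.55 to 14.5%, and the higher ones were the more frequent without WT series a and without WT series b. The levels at the ends over the other rows, oschz1 minus WT series, ran from -0.025 to -0.018.

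The shares past 2-fold depended on the settings. Higher and lower shares were 8.41% and 8.97% with a pseudocount of 0.5, 3.31% and 3.61% with 5, 3.89% and 4.58% at or above the lower quartile of mean occupancy, 1.14% and 1.44% with both summits, and 18.1% and 19.3% at 1.5-fold. The lower share was 8.08% with ends of 500 kb. Lower nucleosomes outnumbered higher ones under each of these settings. The shares past 2-fold in this section were computed for the ends alone. Shares of all nuclear nucleosomes at the same settings are not at hand, so nothing particular to the ends is read from them. Median spacing was 190 bp in oschz1 and 190 bp in WT when distances of over 400 bp were left out. Displacement was found at 32.0% with a limit of 40 bp and at 7.81% with 70 bp, where 49.8% were toward the end. The point value was not run as an alternative, because it was listed at 0 in both genotypes at 46.4% of the end nucleosomes and 69.9% of the other rows. No paired analysis was possible because the labelled replicate behind each series is not known.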
